A study of Mus musculus with 6 samples.

Results

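Genes of kidney macrophages and other myeloid cells were examined in iron-deficient (FeD) and control mouse kidneys. The genes were Cd68, Ctss, Fcgr3, Itgam, Csf1r, Il1b, Cxcr4, Mrc1, Cd163 and Cx3cr1. They were 10 of the 24422 gene symbols in the count tables, chosen by name as markers of these cells. Earlier results of these data were known when they were chosen. Macrophages settle in the kidney before birth, lie between tubules and vessels, take up debris and antibody-coated particles through scavenger and Fc receptors, and survive on signals through the receptor Csf1r. They degrade what they take up in lysosomes, and in iron-recycling tissues they also clear hemoglobin. Cells that arrive from blood, monocytes and neutrophils, carry the integrin Itgam and can make the cytokine Il1b.

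All 6 mice were wild type C57BL/6 pups at postnatal day 15. The 3 FeD pups came from dams kept on an iron-deficient diet of 2 to 6 ppm iron before and during pregnancy and after birth, and the 3 control pups from dams given a diet with 220 ppm iron. Polyadenylated RNA of whole kidneys was sequenced, with 1 library per pup. The litters were not given, so litter and diet cannot be told apart, and a change in a whole kidney can come from the number of cells of a type or from the RNA per cell, which cannot be told apart either.

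Libraries held 13732173 to 20853293 counts, and a floor of 3 counts stood at 0.144 to 0.218 CPM (counts scaled to the library total), for counting error only. All 10 kidney markers checked were present in every library, with 1 higher and 3 lower in FeD, Slc34a1 of the proximal tubule among them (log2 fold change -2.22). By Xist and Y-linked counts, control kidneys 1 and 2 and FeD kidney 3 came from females and the others from males. Markers of adrenal cortex summed to 810.2 CPM in FeD kidney 2 against 14.5 and 14.6 CPM in the other FeD kidneys. Control kidney 1 stood at 79.1 CPM for the same list and the other control kidneys at 8.17 and 10.9 CPM. Cyp11b1 of the list had 1828 counts in FeD kidney 2 but 0 in control kidney 1. Cyp11b2 had 21 counts in FeD kidney 2 and 0 in the 5 other libraries. Whether the counts of control kidney 1 came from adrenal tissue was not tested. Control kidney 2 had 53 counts of Mpo and 90 of Ngp, made by neutrophil precursors, against at most 1 and 36 counts in the other libraries. Of 4 tested adrenal markers 3 were higher in FeD, Cyp21a1, Star and Mc2r. The calls of Cyp21a1 and Star were lost without FeD kidney 2. Mc2r exceeded the minimum of the filter on low counts in 0 control and 3 FeD kidneys, so it passed through the group in which it was high. Of 4 tested red cell genes, Slc4a1, which intercalated cells also express, was lower, and the 4 globin symbols on that list were at 0 in all libraries.

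Promoter sequences are shown for 4 of the 8 genes that were higher in FeD kidneys, each with a match to the motif marked below. The motif was searched because PU.1, encoded by Spi1, is a main factor of the myeloid lineage, though not of that lineage alone, and binds a purine-rich core. The windows held 250 bases before each annotated transcription start in RefSeq (build GRCm38.p6), at chr11:69666171-69666420 on the minus strand for Cd68, chr3:95526536-95526785 on the plus strand for Ctss, chr7:128062390-128062639 on the plus strand for Itgam and chr1:171059404-171059653 on the minus strand for Fcgr3. Each is written 5′ to 3′ on the strand of its gene, and capitals mark GAGGAA or, for a match on the other strand, TTCCTC.
Cd68: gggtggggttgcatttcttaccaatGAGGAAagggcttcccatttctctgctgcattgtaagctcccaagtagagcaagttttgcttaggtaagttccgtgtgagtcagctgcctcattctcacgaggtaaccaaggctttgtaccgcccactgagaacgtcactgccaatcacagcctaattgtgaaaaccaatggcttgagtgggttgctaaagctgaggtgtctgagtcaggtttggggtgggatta
Ctss: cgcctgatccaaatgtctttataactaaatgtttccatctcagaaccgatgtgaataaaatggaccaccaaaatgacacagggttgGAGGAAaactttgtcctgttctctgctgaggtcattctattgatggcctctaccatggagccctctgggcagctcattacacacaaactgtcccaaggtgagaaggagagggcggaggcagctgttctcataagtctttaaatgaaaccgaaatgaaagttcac
Itgam: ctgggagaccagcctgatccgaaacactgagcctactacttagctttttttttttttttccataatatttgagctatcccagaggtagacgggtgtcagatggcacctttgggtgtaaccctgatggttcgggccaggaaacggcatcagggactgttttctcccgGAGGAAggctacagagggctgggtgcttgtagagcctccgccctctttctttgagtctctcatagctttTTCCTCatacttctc
Fcgr3: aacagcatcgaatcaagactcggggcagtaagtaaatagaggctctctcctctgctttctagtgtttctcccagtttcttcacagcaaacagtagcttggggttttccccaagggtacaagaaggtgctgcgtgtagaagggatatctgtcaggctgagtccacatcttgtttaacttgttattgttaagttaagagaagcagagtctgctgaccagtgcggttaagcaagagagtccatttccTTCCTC
Cd68 encodes a heavily glycosylated membrane protein of late endosomes and lysosomes, Ctss the lysosomal protease cathepsin S, Itgam the integrin subunit CD11b, and Fcgr3 a low-affinity activating receptor for antibody. Promoter windows were found for 9 of the 10 genes. Over the full 300-base windows, which run 50 bases past the start, GAGGAA was found on either strand in 5 of these 9 genes, against 28.3% of all 32851 windows. The fifth gene was Mrc1, with 3 matches. Cxcr4, Il1b and Cd163, which were also higher in FeD kidneys, held no match, nor did Cx3cr1. The window of Itgam held 3 matches, those of Cd68 and Ctss 2 each, and that of Fcgr3 1. In Ctss, Itgam and Cd68, 1 match each lies at or past the start and is not shown. The core of hypoxia response elements, ACGTG, was found in 1 of the 9 genes, Cd163, and in 19.6% of all windows. TTGCNNAA, a C/EBP motif, was found in Fcgr3 and Cd68 and in 10.8% of windows, TGANTCA, an AP-1 motif, in Cd68 and in 7.81%, and TATAAA in 3 genes, Cxcr4, Il1b and Ctss, and in 13.6%. These are matches of letters and show nothing about binding.

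Of the 10 genes, 8 were higher and 1, Csf1r, was lower in FeD kidneys at an adjusted P under 0.05 (edgeR's quasi-likelihood test, Benjamini-Hochberg adjustment over 15145 genes). Among all tested genes 22.4% were higher and 23.3% were lower by the same rule. The 10 genes were chosen with earlier results of these data known, so the shares given here describe the set and do not test it. Cd68, Ctss, Fcgr3, Itgam, Il1b, Cxcr4 and Cd163, 7 genes, were also at least 2-fold higher, as were 4.34% of all tested genes, and Mrc1 rose by less. Csf1r fell by less than 2-fold, a limit that 5.69% of all tested genes passed on the lower side. Cx3cr1 did not pass. The log2 fold change, FeD over control (log2FC), had a median of 1.26 over the 10 genes and of -0.0018 over all tested genes. In the same 8 genes every FeD kidney lay above every control kidney, as in 28.4% of tested genes, and Csf1r was the 1 gene with every FeD kidney below every control kidney, as in 29.7%. All 10 genes passed the filter on low counts, but Il1b exceeded its minimum in 1 control kidney and in 3 FeD kidneys, so it passed through the group in which it was high. Values below are TMM-normalised counts, scaled to the mean library size, and positions are those of the mm9 annotation.

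**Figure D1:**
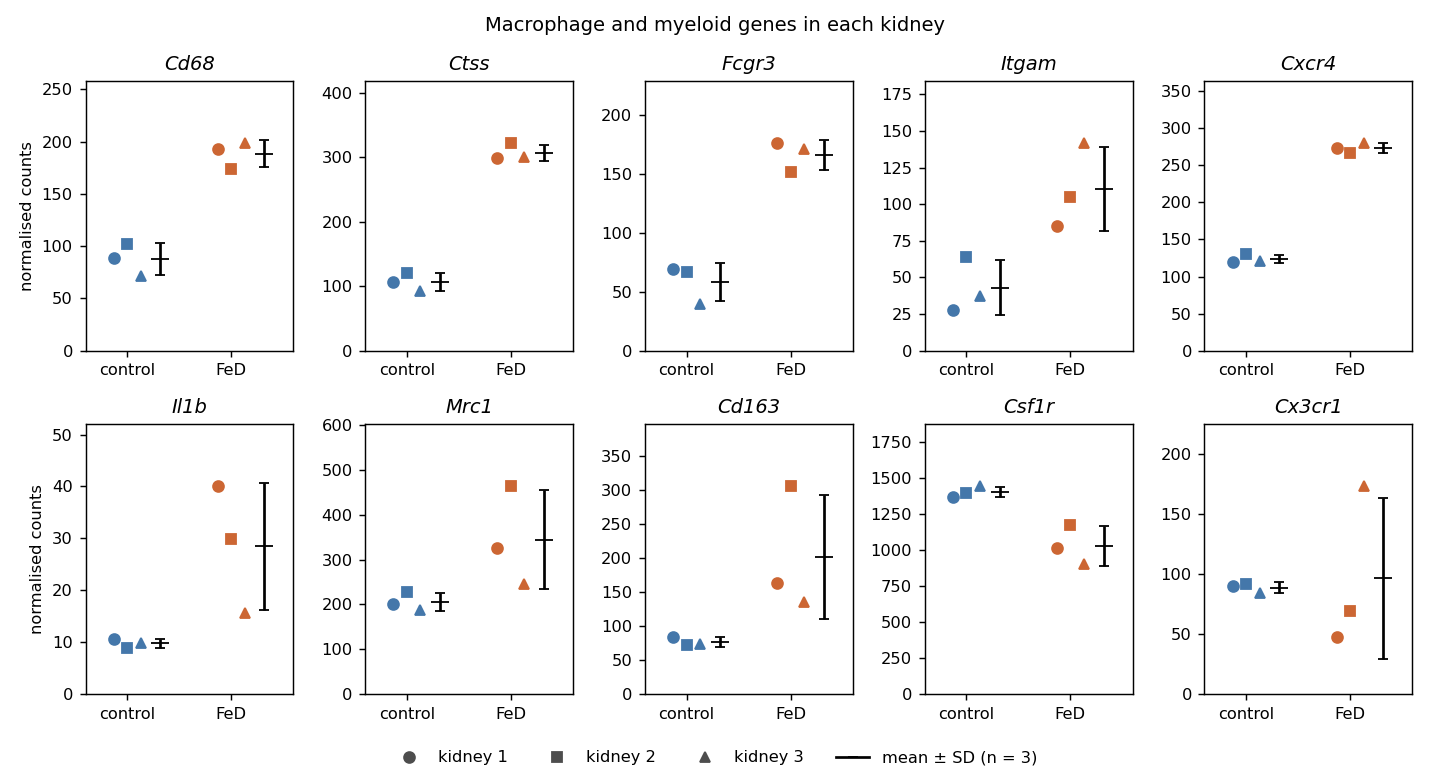
Normalised counts of the 10 genes in each kidney (vertical axes from 0), with control kidneys in blue, FeD kidneys in orange and the mean ± SD of 3 kidneys beside them. Cxcr4 sits at 266 to 279.7 in FeD kidneys against 119.8 to 131 in control kidneys, whereas Cx3cr1 is spread from 47.0 to 173 in FeD kidneys.

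The lysosomal genes of macrophages were higher in FeD kidneys. Ctss (chromosome 3, 95330708 to 95360325) had 106, 121 and 92.5 normalised counts in control kidneys 1 to 3 and 299, 322 and 300.4 in FeD kidneys 1 to 3. The FeD kidneys were close together and well above the control kidneys. The log2FC was 1.53 (standard error, SE, 0.13, adjusted P = 9.0e-05, edgeR), which is 2.88-fold, and cathepsin S cuts the invariant chain during antigen presentation. Cd68 (chromosome 11, 69477715 to 69479655) had 89.1, 102 and 71.2 normalised counts in control and 193, 174 and 199 in FeD kidneys. The groups did not overlap, and the log2FC was 1.12 (SE 0.16, adjusted P = 0.0010, edgeR). Without control kidney 3 it was 0.98, under the 2-fold limit, with an adjusted P of 0.0059 (edgeR).

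Fcgr3 and Itgam, which bind particles coated with antibody or complement, rose as well. Fcgr3 (chromosome 1, 172981300 to 172995066) had 69.0, 66.4 and 40.0 normalised counts in control and 176, 152 and 171 in FeD kidneys, a log2FC of 1.51 (SE 0.22, adjusted P = 0.00096, edgeR). The lowest FeD kidney was more than 2-fold above the highest control kidney. Fcgr2b, the inhibitory receptor for the same antibodies, went the other way, from 251 ± 29.4 to 159 ± 53.7 normalised counts (SD, n = 3), a log2FC of -0.66 (adjusted P = 0.042, edgeR) that held in 10 of 16 alternatives, and not when control kidney 1, 2 or 3 or FeD kidney 1 or 3 was left out. Of the 100-base windows in the transcripts of Fcgr3, 2.69% recur in Fcgr2b, and reads that fit both genes were not counted. The other activating receptors did not pass, Fcgr1 with 18.2 ± 4.19 and 26.8 ± 3.88 normalised counts and Fcgr4 with 15.8 ± 6.34 and 16.03 ± 3.44 in control and FeD kidneys.

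Itgam (chromosome 7, 135206154 to 135271674) pairs with Itgb2 to form complement receptor 3. It had 27.8, 64.2 and 37.4 normalised counts in control and 85.0, 105 and 142 in FeD kidneys. The groups did not overlap but both were spread widely, and the log2FC was 1.37 (SE 0.33, adjusted P = 0.0096, edgeR). Control kidney 2, the library with Mpo and Ngp counts, was the highest control kidney, and without it the log2FC was 1.76. The partner Itgb2 had 55.9 ± 21.8 normalised counts in control and 66.0 ± 13.1 in FeD kidneys and did not pass (log2FC 0.24, adjusted P = 0.55, edgeR). C3, the precursor of its complement ligand, had 817 ± 48.97 and 842 ± 209 normalised counts and did not pass. Icam1, an adhesion molecule that this integrin also binds, rose from 408 ± 8.71 to 590.4 ± 25.3 normalised counts (log2FC 0.53, adjusted P = 0.00090, edgeR).

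Il1b (chromosome 2, 129190306 to 129196875), the cytokine interleukin-1 beta, was the scarcest of the 10 genes, with 11, 8 and 11 raw counts in control and 40, 23 and 18 in FeD kidneys. Normalised, these were 10.5, 8.85 and 9.79 against 40.0, 29.9 and 15.5 counts. The control kidneys were nearly equal and the FeD kidneys differed by more than 2-fold among themselves. The log2FC was 1.52 (SE 0.40, adjusted P = 0.016, edgeR). It ranged from 1.19 to 1.85 when each kidney was left out in turn, and the adjusted P was 0.060 without control kidney 2, 0.056 without control kidney 3 and 0.056 without FeD kidney 1 (edgeR), so the call is lost in these fits.

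Genes that act with interleukin-1 beta were mostly scarce. Il1r1, its signaling receptor, rose from 365 ± 12.2 to 481 ± 38.4 normalised counts (log2FC 0.40, adjusted P = 0.0073, edgeR). Il1rn, the receptor antagonist, had 12.3 ± 3.47 and 5.45 ± 3.08 normalised counts in control and FeD kidneys and did not pass (log2FC -1.16, adjusted P = 0.075, edgeR). The decoy receptor Il1r2 was too scarce to be tested, with 9, 4 and 5 raw counts in control and 24, 14 and 9 in FeD kidneys. Casp1, which processes the precursor, had 17.0 ± 6.33 and 16.9 ± 4.48 normalised counts, and the accessory receptor Il1rap 231 ± 11.7 and 309 ± 63.1, in control and FeD kidneys, and neither passed. Tnf, Il6, Ccl2, Ccl3, Ccl4, Ccl7, Il1a, Il10 and Nlrp3 had at most 14 raw counts in any library and were not tested. Among them Il10 had 0, 0 and 1 raw counts in control and 7, 11 and 3 in FeD kidneys, and in the others the groups overlapped.

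Cxcr4 (chromosome 1, 130484776 to 130488870), the receptor for the chemokine Cxcl12, is expressed by leukocytes and by some vessel and epithelial cells. It had 119.8, 131 and 121 normalised counts in control and 273, 266 and 279.7 in FeD kidneys, with little spread within either group. The log2FC was 1.14 (SE 0.11, adjusted P = 0.00014, edgeR). Of 10 endothelial markers, 7 were lower and 1, Flt1, was higher, and their sum was 1579 to 1607 CPM in control and 1043 to 1378 CPM in FeD kidneys. Pecam1 had 3112 ± 45.2 and 3321 ± 551 normalised counts, and the part of endothelial cells in the Cxcr4 counts was not tested. The ligand Cxcl12, at 6267 ± 343 and 6743 ± 1093 normalised counts, did not pass (adjusted P = 0.48, edgeR), and its scavenging receptor Ackr3 went from 1588 ± 109 to 1376 ± 31.3 (log2FC -0.21, adjusted P = 0.034, edgeR). The call of Ackr3 held in 6 of 16 alternatives and was lost in DESeq2 (adjusted P = 0.058).

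The scavenger receptors Cd163 and Mrc1 were higher in FeD kidneys, most of all in FeD kidney 2. Cd163 (chromosome 6, 124254669 to 124280545), the receptor that takes up hemoglobin bound to haptoglobin, had 84.4, 71.9 and 73.0 normalised counts in control and 163, 305 and 136 in FeD kidneys. The log2FC was 1.38 (SE 0.30, adjusted P = 0.0062, edgeR). Mrc1 (chromosome 2, 14151041 to 14253684), the mannose receptor, had 201, 227 and 187 normalised counts in control and 325, 464 and 246 in FeD kidneys, a log2FC of 0.74 (SE 0.22, adjusted P = 0.023, edgeR). Lyve1, found on lymphatic vessels and on some tissue macrophages, was also highest in FeD kidney 2, with 63.0, 183 and 96.7 normalised counts in FeD kidneys 1 to 3.

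FeD kidney 2 was the library with adrenal markers. Without it the log2FC was 0.98 for Cd163 (adjusted P = 0.0032, edgeR), just under 2-fold, and 0.50 for Mrc1 (adjusted P = 0.035, edgeR), so both remained past the adjusted P and both changes were smaller. With FeD kidney 2 and control kidney 1 both left out, the adjusted P was 0.010 for Cd163 and 0.11 for Mrc1 (edgeR). Mrc1 also did not pass without control kidney 1 (adjusted P = 0.069), without control kidney 3 (adjusted P = 0.084) or with sex in the fit (adjusted P = 0.056, all edgeR). Haptoglobin (Hp) had 132 ± 11.7 normalised counts in control kidneys and 139, 71.4 and 329 in the FeD kidneys, with no shift between groups beyond that spread.

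Csf1r (chromosome 18, 61265226 to 61291803) was the 1 gene of the set that fell. It had 1373, 1401 and 1444 normalised counts in control and 1014, 1179 and 904 in FeD kidneys. Every FeD kidney was below the control kidneys, which were close together. FeD kidneys had 73.4% of the control mean, a log2FC of -0.45 (SE 0.10, 95% CI -0.67 to -0.23, adjusted P = 0.0060, edgeR). The change was -0.35 without FeD kidney 3 and -0.53 without FeD kidney 2, and it stayed past the adjusted P whichever kidney was left out.

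Hmgxb3, on the opposite strand, overlaps 16.7% of the exon bases of Csf1r, and the strand setting of the counting was not given, so some counts can belong to that gene. Hmgxb3 had 880 ± 24.1 normalised counts in control and 814 ± 36.2 in FeD kidneys and did not pass (log2FC -0.11, adjusted P = 0.23, edgeR). Of the ligands of Csf1r, Il34 was higher and Csf1 slightly lower. Csf1 went from 317 ± 17.3 to 254 ± 15.2 normalised counts (log2FC -0.32, adjusted P = 0.027, edgeR), and Il34, a ligand made by epithelial cells, rose from 218 ± 12.3 to 499 ± 132 (log2FC 1.20, SE 0.19, adjusted P = 0.0014, edgeR). In single FeD kidneys Il34 stood at 612, 354 and 532 normalised counts, all above the highest control kidney at 230.1. The call of Il34 held in all 16 alternatives and that of Csf1 in 6 of 16, and Csf1 did not pass in DESeq2 (adjusted P = 0.071) or in edgeR when control kidney 1, 2 or 3 or FeD kidney 1 was left out.

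Cx3cr1 (chromosome 9, 119957811 to 119977400), the receptor for fractalkine and a marker of resident macrophages and patrolling monocytes, did not shift to one side in all FeD kidneys. It had 90.1, 91.8 and 83.6 normalised counts in control and 47.0, 68.8 and 173 in FeD kidneys. FeD kidneys 1 and 2 lay below the control kidneys and FeD kidney 3 lay above them. The log2FC was 0.14 (SE 0.42, 95% CI -0.83 to 1.10, adjusted P = 0.81, edgeR), an interval that holds changes of up to about 2-fold upward. Without FeD kidney 3 the log2FC was -0.61 (adjusted P = 0.044, edgeR). FeD kidney 3 was the female of its group, while the female control kidneys stood at 90.1 and 91.8, and with sex in the fit the log2FC was 0.24 (adjusted P = 0.58, edgeR). The ligand Cx3cl1 had 1445 ± 121 and 1577 ± 171 normalised counts in control and FeD kidneys and did not pass (adjusted P = 0.30, edgeR).

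**Figure D2:**
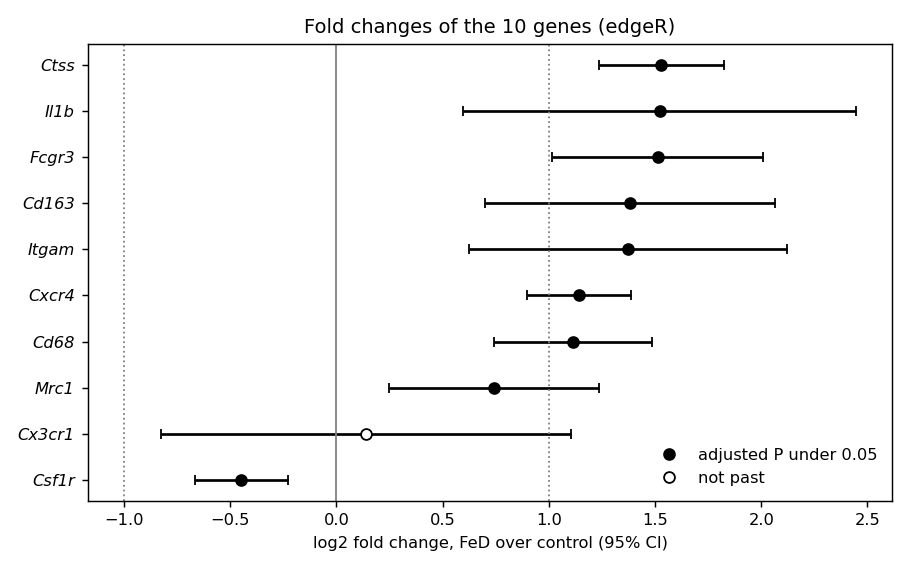
Log2 fold change of each gene, FeD over control, with its 95% CI from the edgeR fit of 6 kidneys. Filled points passed the adjusted P and dotted lines mark 2-fold, with Csf1r at -0.45 on the lower side and Cx3cr1 open at 0.14.

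Compared per length, as normalised counts per kilobase of exon, Csf1r was the most abundant of the 10 genes in control kidneys at 269. Ctss followed at 78.4, Cd68 at 69.5 and Cxcr4 at 68.5, and these 3 ranges overlapped. Mrc1 stood at 34.5 and Fcgr3 at 33.6, also with overlapping ranges, then Cx3cr1 at 23.7, whose range overlapped that of Fcgr3, and Cd163 at 17.0, and Itgam at 6.76 and Il1b at 5.10 per kilobase of exon were lowest, again with overlapping ranges. In FeD kidneys Ctss reached 226 per kilobase of exon and Csf1r 197, with overlapping ranges (220.1 to 237 and 173 to 225). Cxcr4 at 151 and Cd68 at 149.96 came next, then Fcgr3 at 95.5, above Mrc1 at 58.0. Cd163, at 44.8 per kilobase of exon, stood above Cx3cr1, at 25.8, and the ranges of these 3 last genes overlapped. Itgam at 17.3 and Il1b at 14.9 per kilobase of exon had the lowest means, and their ranges overlapped each other and that of Cx3cr1, which was the lowest of the 10 genes in FeD kidney 1 at 12.6.

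The 10 genes were then set against other white blood cell genes of the same kidney, as a percentage of the summed counts of 16 pan-leukocyte genes. These sums were 1554 to 1728 counts in control and 1237 to 2033 in FeD kidneys, or 77.4 to 106 CPM and 87.3 to 98.3 CPM, so the groups overlapped. Ctss made up 6.42%, 6.34% and 6.69% of the sum in control kidneys and 19.2%, 20.05% and 17.1% in FeD kidneys. Cd68 went from 5.15% to 5.38% in control to 10.8% to 12.4% in FeD kidneys, and Fcgr3 from 2.90% to 4.17% to 9.46% to 11.3%. Csf1r ran the other way, with 73.6% to 104% in control and 51.5% to 73.4% in FeD kidneys. On the log2 scale the FeD minus control difference was 1.53 for Ctss, 1.54 for Fcgr3, 1.12 for Cd68, 1.14 for Cxcr4, 1.41 for Itgam and -0.46 for Csf1r. In 9 of the 10 genes the groups did not overlap, which gave the smallest P that an exact two-sided permutation test of 3 against 3 allows, 0.10. Cx3cr1 was the exception, at 4.83% to 6.05% in control and 3.01% to 9.84% in FeD kidneys (exact permutation P = 0.90). The 9 genes are the same 8 higher and 1 lower that did not overlap by normalised counts. By normalised counts every FeD kidney lay above every control kidney in 28.4% of all tested genes and below in 29.7%. The share for percentages of the pan-leukocyte sum was not computed.

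**Figure D3:**
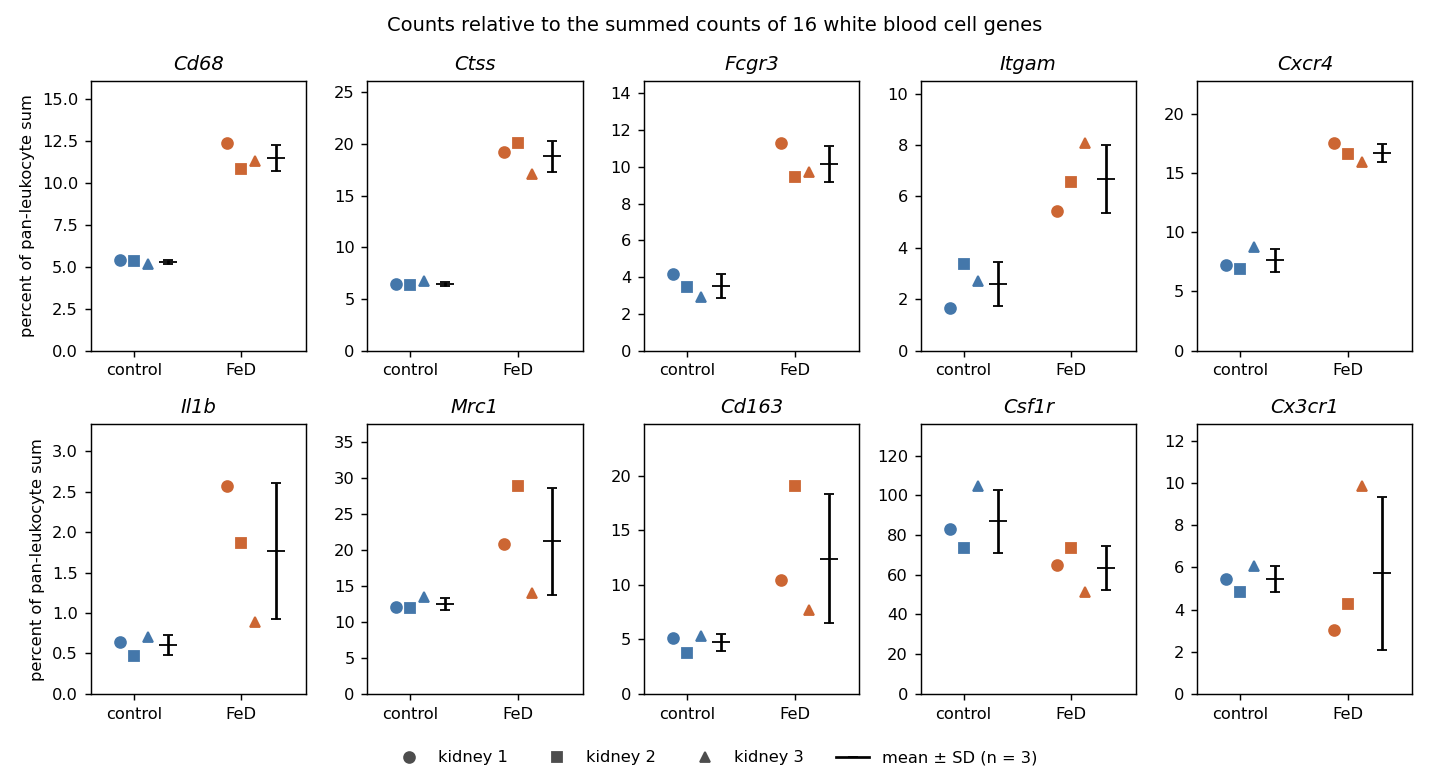
Counts of each gene as a percentage of the summed counts of 16 pan-leukocyte genes in the same kidney, with the mean ± SD of 3 kidneys (vertical axes from 0). Ctss lies at 17.1% to 20.05% in FeD and 6.34% to 6.69% in control kidneys, and Csf1r is lower in FeD kidneys.

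A wider list of macrophage and monocyte markers had 34 tested genes. Of these, 11 were higher and 4 were lower in FeD kidneys at an adjusted P under 0.05 and 19 did not pass (edgeR). Among all tested genes 22.4% were higher and 23.3% lower, shares to be set beside the counts of each list. The list's median log2FC was 0.31. With each kidney left out in turn, 4 to 12 were higher and 1 to 3 lower, the fewest, 4 and 1, without control kidney 3. Trem2 and Gpnmb exceeded the filter's minimum in 1 control kidney and 3 FeD kidneys, so they passed through the group in which they were high, and Clec7a, which exceeded it only in the 3 control kidneys, through the control group. Trem2, a lipid-sensing receptor of macrophages, rose from 8.37 ± 3.47 to 31.9 ± 10.3 normalised counts (log2FC 1.93, adjusted P = 0.0064, edgeR). Gpnmb, a gene of lipid-laden and phagocytic macrophages, rose from 8.94 ± 3.07 to 36.6 ± 27.0 normalised counts (log2FC 1.96, adjusted P = 0.022, edgeR), with FeD kidney 2 highest at 67.5, and did not pass without control kidney 2 or 3. Lyve1 had a log2FC of 1.37 (adjusted P = 0.018, edgeR), a call that held in 12 of 16 alternatives and not without control kidney 2 or 3.

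Genes of the complement recognition molecule C1q, made in the kidney largely by macrophages, changed by less than 2-fold. C1qc rose from 206 ± 26.3 to 300.1 ± 17.6 normalised counts (log2FC 0.55, adjusted P = 0.0070, edgeR). C1qa rose by 0.42 on the log2 scale (adjusted P = 0.025, edgeR), while C1qb, at 252 ± 36.5 and 324 ± 39.2, did not pass. The call of C1qc held in 14 of 16 alternatives. That of C1qa held in 10 of 16 and was lost without control kidney 1 or 3 or FeD kidney 2. Cd14, the lipopolysaccharide coreceptor, rose by 0.52 on the log2 scale (adjusted P = 0.029, edgeR). Its call held in 10 of 16 alternatives, and not when control kidney 1, 2 or 3 or FeD kidney 1 or 3 was left out. On the lower side, Clec7a, the beta-glucan receptor dectin-1, fell from 27.7 ± 7.25 to 4.17 ± 1.10 normalised counts (log2FC -2.71, adjusted P = 0.00096, edgeR). Aif1, the gene of the macrophage protein Iba1, went from 23.96 ± 1.84 to 12.6 ± 2.67 normalised counts (log2FC -0.94, adjusted P = 0.027, edgeR), a call that held in 5 of 16 alternatives and not in DESeq2 (adjusted P = 0.15).

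Other widely used markers of macrophages and monocytes did not pass. Adgre1, which encodes F4/80, had 86.1 ± 8.35 normalised counts in control and 66.2 ± 18.1 in FeD kidneys (log2FC -0.39, adjusted P = 0.19, edgeR). Spi1 had 61.4 ± 6.02 and 45.9 ± 12.8 (adjusted P = 0.22, edgeR), and Lyz2, the lysozyme of macrophages and neutrophils, 447 ± 52.5 and 541 ± 133 (adjusted P = 0.23, edgeR). Ccr2, the receptor of inflammatory monocytes, had 60.5 ± 22.4 and 52.9 ± 16.3 normalised counts (adjusted P = 0.71, edgeR), and Ly6c2 had at most 7 raw counts in any library.

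Among the 16 pan-leukocyte genes, 2 were higher, 1 was lower and 13 did not pass (edgeR), and the list's median log2FC was 0.11. Of all tested genes 22.4% were higher and 23.3% were lower. Ptprc, which encodes CD45, rose from 206 ± 39.4 to 301 ± 67.8 normalised counts (log2FC 0.56, adjusted P = 0.047), and Ncf1, a subunit of the phagocyte oxidase, rose by 0.59 on the log2 scale (adjusted P = 0.033). Lcp1, the actin bundler L-plastin, fell by 0.45 on the log2 scale (adjusted P = 0.021, all edgeR). Neither Ptprc nor Ncf1 passed when control kidney 1, 2 or 3 or FeD kidney 3 was left out (edgeR). Lcp1 did not pass without control kidney 1 or 2 or without FeD kidney 1 or 2. In the full comparison 4 of the 16 had an unadjusted P under 0.05, and DESeq2 called 1 higher and 1 lower.

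Lysosomal genes that tubule cells and macrophages share were mixed. Of 15 tested, 7 were higher and 3 lower at the adjusted P, by less than 2-fold throughout (edgeR), and the list's median log2FC was 0.22. Ctsc, which activates proteases of granulocytes, rose from 759 ± 39.9 to 1381 ± 315 normalised counts (log2FC 0.87, adjusted P = 0.0021). Scarb2, a lysosomal membrane protein, rose by 0.80 on the log2 scale and Npc2, a cholesterol carrier, by 0.66. The cathepsin genes Ctsz and Ctsb fell by 0.54 and 0.37 on the log2 scale. Exons of Ctsb overlap those of Fdft1, on the opposite strand, over 16.2% of their bases.

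**Figure D4:**
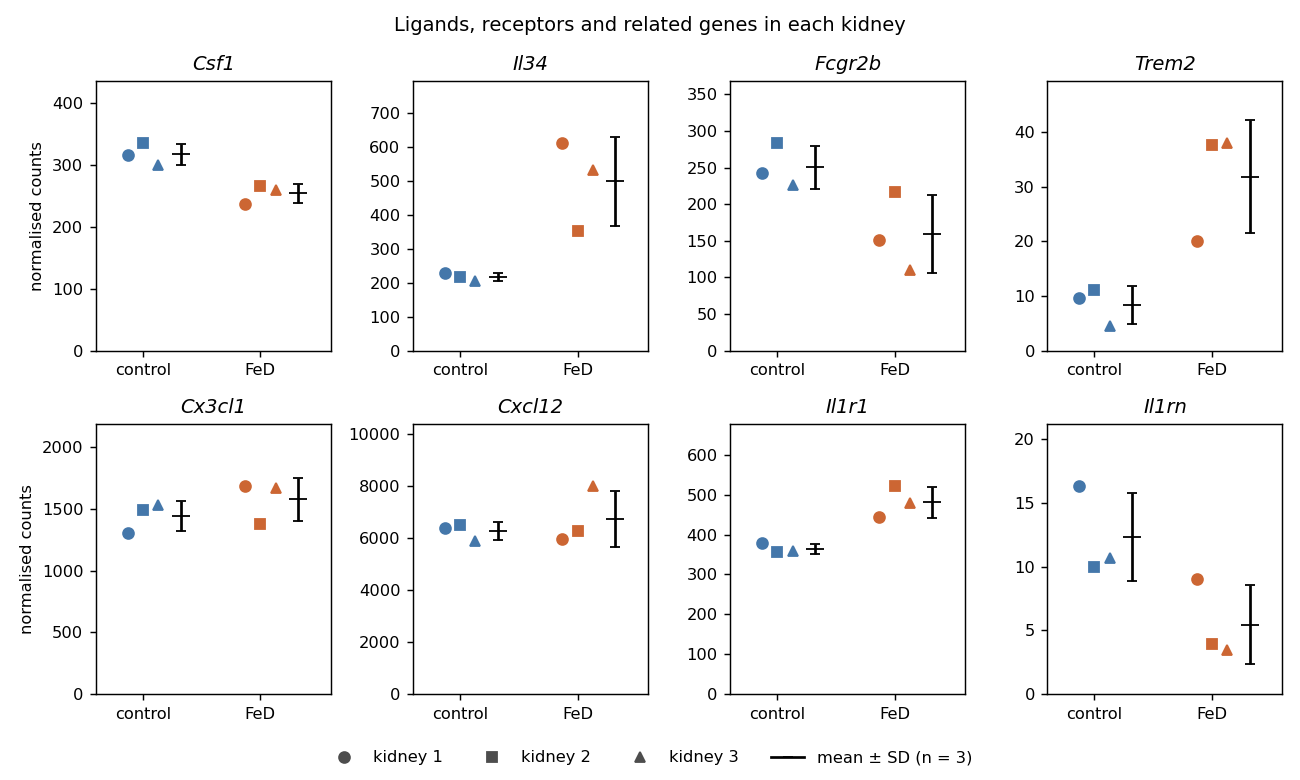
Normalised counts in each kidney of 8 genes that act with the 10 genes or resemble them, with the mean ± SD of 3 kidneys (vertical axes from 0). Il34 and Trem2 are higher in each FeD kidney than in each control kidney and Csf1 and Fcgr2b are lower, whereas Cxcl12 and Cx3cl1 overlap.

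Of the 12 tested ligands and partners, 3 were higher, Il34, Icam1 and Il1r1, and 2 were lower, Csf1 and Ackr3 (edgeR). DESeq2 called 4 higher and neither Csf1 nor Ackr3, and neither passed in edgeR without control kidney 2 or 3. Of the macrophage iron genes, Hmox1, the heme-degrading enzyme, had 263 ± 21.4 normalised counts in control and 359, 706 and 236 in FeD kidneys, with FeD kidney 2 again highest. Slc40a1, the iron exporter, had 2076 ± 214 and 2311 ± 155, and Slc11a1, the phagosomal metal transporter, 35.96 ± 3.55 and 37.0 ± 12.0 normalised counts. None of these 3 passed (edgeR), 0 had an unadjusted P under 0.05 and DESeq2 called 0, while 1 was higher in edgeR without FeD kidney 3.

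Markers of other blood cells were mixed. Neutrophil markers summed to 12.2 to 42.1 CPM in control and 15.9 to 37.8 CPM in FeD kidneys, with Ly6g at 1 count in all 6 libraries together. Of 9 tested, Retnlg was higher and Mmp9 lower. Retnlg exceeded the filter's minimum in 0 control and 3 FeD kidneys, so it passed through the group in which it was high. Its call was lost without control kidney 3. S100a8 had 18.2, 89.6 and 14.2 normalised counts in control and 105, 187 and 57.0 in FeD kidneys without passing (adjusted P = 0.10, edgeR). Its partner S100a9 did not pass either (adjusted P = 0.18, edgeR). Control kidney 2 was the high control kidney, and without it 4 of 9 tested neutrophil genes were higher and 1 was lower. Of 18 lymphoid markers 5 were tested and 3 were lower, Cd79a, Cd8a and Cd4, with log2FC values of -2.38, -2.22 and -1.63. Cd79a exceeded the filter's minimum in 3 control and 0 FeD kidneys, so it passed through the control group. The summed level of the list fell from 12.7 to 19.7 CPM in control to 7.25 to 8.43 CPM in FeD kidneys. Cd3e of T cells and Ncr1 of natural killer cells had at most 8 and 2 raw counts. Of 5 tested dendritic cell markers 1 was lower, Batf3 (log2FC -0.99, adjusted P = 0.020, edgeR), and Itgax had 20.5 ± 4.30 and 16.2 ± 2.55 normalised counts, while Flt3 had at most 10 raw counts. Mast cell markers summed to 3.39 to 5.42 CPM in control and 6.03 to 7.78 CPM in FeD kidneys, but 0 of 5 passed in edgeR or DESeq2 and 0 had an unadjusted P under 0.05, while 1 was higher in edgeR without FeD kidney 2. The part of these cells in the values of the 10 genes was not tested.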

How the data were processed

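Polyadenylated RNA of whole kidneys was sequenced by the authors as single-end reads of 100 bases. They converted base calls with CASAVA 1.8.2, trimmed with Trimmomatic, aligned to mm9 with TopHat 2.0.11, kept uniquely mapped reads and deposited raw HTSeq counts per gene, without normalisation or pooling. The annotation, counting mode and strand setting are not given in the sources used here. Groups and replicate numbers came from the sample labels, and both tables were joined by gene symbol.

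From the deposited counts, genes were filtered with filterByExpr, normalised by TMM and compared by the quasi-likelihood test of edgeR 4.0.16 (R 4.3.3) with Benjamini-Hochberg adjustment. Calls used an adjusted P under 0.05, with or without a log2 fold change of at least 1. Standard errors are the fold change over the square root of F. The procedure was tested on simulated data. DESeq2 1.42.0, which the study used, was an alternative, with other scalings and filters, a replicate block, a test against a fold change of 1.5 and each kidney left out. A sex term and fits without pairs of libraries were added after seeing the data.

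The 10 genes, and 13 lists of related cells and partners, were chosen with earlier results of these data known. Named genes were the 10 genes, defining markers and partners fixed with the lists, and called genes with the largest changes of the macrophage, pan-leukocyte and lysosome lists; Hmgxb3, Fcgr1, Fcgr4, Lyve1 in single kidneys, Flt1, Slc4a1, Mpo, Ngp, Cyp11b2, Retnlg, Mmp9, Cd4, Cd8a, Batf3 and genes too scarce to be tested were chosen after their values were seen. A gene that the rule names is not reported here. Positions and exon lengths came from the GENCODE annotation of NCBIM37, which is mm9 and in which 20608 symbols matched 1 gene; promoters came from RefSeq (GRCm38.p6). Libraries of a group differed by a chi-square per degree of freedom of 3.77 to 30.4, so none was deposited more than once.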

Additional observations from a re-analysis of the deposited data

How the results depend on the processing

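Of the 10 genes, Cd68, Ctss, Fcgr3 and Cxcr4 stayed past the adjusted P in all 16 alternatives run, and Csf1r, Itgam and Cd163 in 15 of 16. Mrc1 passed in 10 of 16 and Il1b in 9 of 15. The exception for Csf1r, Itgam and Cd163 was the edgeR test against a fold change of 1.5, which left 4 genes higher in place of 7. Without a fold threshold 6924 genes passed in place of 1519, and among the 10 genes 1 was lower. With each kidney left out in turn, 1 to 2 of the 10 genes were lower at the adjusted P, the second being Cx3cr1 at a log2 fold change of -0.61 without FeD kidney 3, and 5 to 7 were at least 2-fold higher. With the libraries of adrenal and marrow markers left out together, 5 were at least 2-fold higher, and with both libraries of steroidogenic markers left out, 6.

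Replicate numbers 1 to 3 occur in both groups but mark different pups. The correlation of the deviations of same-numbered kidneys was -0.18, -0.0020 and -0.043. Kidneys with different numbers gave -0.10 to 0.19. With 3 kidneys a group these values do not show whether the numbers pair the samples. With the replicate number as a block, 1534 genes were called and the same 7 genes were at least 2-fold higher, while the log2 fold change of Cx3cr1 was -0.048 (0.49 without FeD kidney 1 and no block). None of the 10 genes changed its call under the block, but Csf1, Ackr3, Ptprc, Ncf1 and Aif1 did not pass under it (adjusted P 0.057, 0.063, 0.083, 0.062 and 0.060, edgeR). Relative to the pan-leukocyte sum, the log2 difference of Cx3cr1 was -0.11, and it ranged from -0.59 without FeD kidney 3 to 0.26 without FeD kidney 1, with 0.0075 without FeD kidney 2. With the macrophage and monocyte sum as reference, the differences of Cd68, Ctss, Fcgr3 and Cxcr4 were 0.86, 1.28, 1.29 and 0.88, that of Csf1r was -0.71 in place of -0.46, and Mrc1 no longer separated the groups (0.45 in place of 0.70, exact permutation P = 0.30). Il1b was not tested at a minimum of 10 counts in every kidney. Low counts limit the precision of Il1b, with 8 to 11 counts in control kidneys.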
